A study of Mus musculus with 2 samples.

Results

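The class 3 semaphorins and their receptors were followed in single FAPs as 10 genes, 6 ligands (*Sema3a* to *Sema3f*) and 4 receptors (*Nrp1*, *Nrp2*, *Plxnd1* and *Plxna2*), of 31053 genes counted, of which 20500 had a UMI in either library. The genes were given by name and all 10 had UMIs in both libraries. FAPs, the fibro/adipogenic progenitors of muscle, were sorted as Lin-Vcam1-Sca1+ cells from limb muscle of C57BL/6 mice aged 3 weeks and measured with a 10x Genomics 3′ kit, with 1 library per genotype. The control genotype was Bap1f/f, a littermate with the floxed alleles and no Cre, called Bap1WT here, and the mutant was Prx1-Cre; Bap1f/f, called Bap1ΔMPC, in which Cre is driven by a promoter active across limb mesenchyme. The sources used here do not give the number of mice behind each library. Cells were counted as Dpp4-type when *Pi16*, *Anxa3* and *Efemp1* together reached 20 UMIs per 10000 of the cell, a definition that does not use *Sema3c*, and the remaining cells are called other cells.

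Class 3 semaphorins are secreted proteins that steer axons, vessels and migrating cells. Most of them bind a neuropilin, which has little signalling capacity of its own and passes the signal to a plexin held in the same complex. *Sema3e* is the exception, since it can bind *Plxnd1* without a neuropilin. In muscle the family is known for acting on motor axons near the neuromuscular junction and on the growth of capillaries.

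The library labelled Bap1WT held 4103 cells with a median of 12232 UMIs, and the library labelled Bap1ΔMPC held 4378 cells with a median of 11017.5 UMIs. *Bap1* itself reached 17.6 CPM (UMIs scaled to a common total of summed UMIs) and 21.6 CPM, respectively, but 3′ tags do not show whether the floxed exons were present, so this count does not check the genotype and every direction is that of the libraries as labelled. The libraries shared 5 cell barcodes. Dpp4-type cells numbered 1045 (25.5% of cells, exact binomial 95% interval 24.1 to 26.8) in the library labelled Bap1WT and 1077 (24.6%, 23.3 to 25.9) in the other. Their median rule score was 48.2 and 38.4 UMIs per 10000, and 247 (6.02%) and 422 (9.64%) of all cells scored between 15 and 25, near the limit. *Dpp4*, which the rule did not use, was at 297 CPM in Dpp4-type and 57.4 CPM in other cells of the library labelled Bap1WT, and at 269 and 51.9 CPM in the library labelled Bap1ΔMPC. The FAP gene *Pdgfra* ranged from 167 to 386 CPM over the 4 combinations of library and class. *Pdgfra*, *Dcn* and *Col1a1* were lower in Dpp4-type than in other cells of both libraries. The FAP genes *Ly6a* (1243 to 2907 CPM) and *Cd34* (789 to 1722 CPM) were higher there. Over all cells *Col1a1* was at 21267 CPM in the library labelled Bap1WT and 9859 CPM in the library labelled Bap1ΔMPC. *Ptprc*, *Cd3e*, *Pax7*, *Myf5* and *Myod1* had no UMI in either library. The 5 immune markers summed to 7.19 and 13.3 CPM, from *Lyz2* (109 and 337 UMIs), *Cd68* (180 and 286) and *Csf1r* (78 and 37), and the 5 muscle stem markers to 37.7 and 20.6 CPM, nearly all from *Vcam1* (1916 and 1017 UMIs). The 5 endothelial markers summed to 83.2 and 115 CPM, carried by *Tek* with 4006 and 5283 UMIs against 78 and 21 of *Cdh5*, 113 and 241 of *Pecam1*, 42 and 146 of *Egfl7* and 8 and 3 of *Cldn5*. The 5 Schwann markers summed to 19.5 and 66.5 CPM, carried by *S100b* with 856 and 3154 UMIs, against 9 and 0 of *Sox10*. The 5 tendon markers summed to 69.6 and 110 CPM, the 5 mural markers to 66.7 and 55.9 CPM and the 5 neuron markers to 4.68 and 7.09 CPM. Of the tendon markers, *Tnmd* (1186 and 2991 UMIs), *Chad* (87 and 1030), *Scx* (47 and 167) and *Mkx* (20 and 30) were higher in the library labelled Bap1ΔMPC. The tendon marker *Fmod* (2210 and 1215 UMIs) was lower there. *Cxcl14*, *Smoc2*, *Hsd11b1*, *Col15a1* and *Crispld2* summed to 503 CPM in Dpp4-type and 2951 CPM in other cells of the library labelled Bap1WT. Their sums in the library labelled Bap1ΔMPC were 541 and 2752 CPM. These similar sums hide opposite differences of single genes. In other cells of the libraries labelled Bap1WT and Bap1ΔMPC, *Cxcl14* was at 314 and 894 CPM and *Col15a1* at 1163 and 1280 CPM. *Smoc2* was at 1323 and 506 CPM there, *Crispld2* at 96.8 and 43.2 CPM and *Hsd11b1* at 54.8 and 30 CPM. The part of these marker lists in the values of the members was not tested. With a single library for each genotype, replicate spread is unknown and nothing was tested. Intervals are exact, at 95%, and describe counting error alone.

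*Sema3c* was the leading ligand of FAPs and was concentrated in Dpp4-type cells of both libraries. *Sema3c*, whose protein guides vessels and neural crest cells through neuropilins with *Plxnd1* or class A plexins, reached 1138 CPM (1120 to 1155) in Dpp4-type and 202 CPM (197 to 206) in other cells of the library labelled Bap1WT. The corresponding levels were 1366 CPM (1345 to 1386) and 282 CPM (277 to 288) in the library labelled Bap1ΔMPC. Dpp4-type cells were thus 5.64-fold higher in the first library and 4.84-fold higher in the second, with log2 differences of 2.49 (2.45 to 2.53) and 2.27 (2.24 to 2.31). After each cell was thinned to 5000 UMIs, 95.3% and 95.9% of Dpp4-type cells and 52.0% and 46.9% of other cells held a *Sema3c* UMI. Before thinning, the shares were 98.5% and 97.9% of Dpp4-type cells and 71.6% and 59.9% of other cells. The other cells that held *Sema3c* averaged 3.41 UMIs in the library labelled Bap1WT and 5.26 in the library labelled Bap1ΔMPC, so fewer cells with more UMIs each stood behind the higher level in the latter. Of the 7466 and 10400 *Sema3c* UMIs in other cells, 2029 and 4810 lay in cells with a rule score of 10 to 20, just under the limit. No cell type known to lack these transcripts was among the sorted cells, so the share that free RNA alone gives could not be measured.

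*Sema3c* made up 85.4% of all class 3 ligand UMIs in Dpp4-type cells of the library labelled Bap1WT and 89.4% in those of the library labelled Bap1ΔMPC. In other cells it made up 73.5% and 84.6%. The 6 ligands together summed to 1332 and 1527 CPM in Dpp4-type cells and to 274 and 334 CPM in other cells. Ligand levels are 3′ UMI counts, not divided by transcript length. At 5000 UMIs per cell, 52.5% and 46.7% of Dpp4-type cells held UMIs of at least 2 of the 6 ligands, against 14.8% and 11.4% of other cells.

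*Sema3b* and *Sema3d* were also higher in Dpp4-type cells. *Sema3b*, a neuropilin ligand also studied as a growth suppressor in tumours, was at 117 CPM in Dpp4-type and 38.3 CPM in other cells of the library labelled Bap1WT, and at 125 and 28.1 CPM in the library labelled Bap1ΔMPC. Its log2 difference between the classes was 1.61 (1.51 to 1.72) and 2.15 (2.03 to 2.26). *Sema3d*, a ligand that shapes coronary and pulmonary veins in development, was at 63.4 and 21.6 CPM in the library labelled Bap1WT and at 28.3 and 12.5 CPM in the library labelled Bap1ΔMPC. The class difference of *Sema3d* was 2.93-fold in the first and 2.27-fold in the second, and that of *Sema3b* was 3.06-fold and 4.43-fold. In the library labelled Bap1WT the 2 genes thus lay on either side of 3-fold with nearly equal differences.

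*Sema3e*, the ligand of *Plxnd1*, was rare, with 4.21 CPM in Dpp4-type and 2.19 CPM in other cells of the library labelled Bap1WT, and 6.22 and 3.31 CPM in the library labelled Bap1ΔMPC. Dpp4-type cells were higher by 0.94 (0.43 to 1.44) and 0.91 (0.48 to 1.33) on the log2 scale. A *Sema3e* UMI was found in 4.59% of Dpp4-type and 0.948% of other cells of the library labelled Bap1WT. In the library labelled Bap1ΔMPC the shares were 5.85% and 2.64%. The 81 *Sema3e* UMIs in other cells of the library labelled Bap1WT lay in 29 cells, which the interval does not take into account. *Sema3f*, which prefers *Nrp2*, went the opposite way. It had 9 UMIs (0.642 CPM, 0.293 to 1.22) in Dpp4-type and 251 UMIs (6.79 CPM) in other cells of the library labelled Bap1WT, and 19 UMIs (1.5 CPM) and 200 UMIs (5.43 CPM) in the library labelled Bap1ΔMPC. The level of *Sema3f* was 10.6-fold and 3.63-fold lower in Dpp4-type cells. With other rules for the class and other scalings, its log2 difference ranged from -3.75 to -2.32 in the library labelled Bap1WT and from -4.14 to -1.82 in the library labelled Bap1ΔMPC, so the order of the libraries is not settled. *Sema3b* and *Sema3f* both lie on chromosome 9, at chr9:107597674-107609229 and chr9:107681500-107710475 on the minus strand (GRCm38), 72270 bases apart, and their class differences had opposite signs in both libraries. *Sema3d*, *Sema3a*, *Sema3e* and *Sema3c* lie in this order on the plus strand of chromosome 5, between positions 12383385 and 17730268.

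*Sema3a* was the member that differed most between the libraries in Dpp4-type cells. *Sema3a*, which repels motor and sensory axons through *Nrp1* and class A plexins, had 129 UMIs (9.2 CPM, 7.68 to 10.9) in Dpp4-type and 137 UMIs (3.7 CPM, 3.11 to 4.38) in other cells of the library labelled Bap1WT. The library labelled Bap1ΔMPC had 11 UMIs (0.866 CPM, 0.432 to 1.55) in Dpp4-type and 82 UMIs (2.23 CPM, 1.77 to 2.76) in other cells. *Sema3a* was thus 10.6-fold lower in Dpp4-type cells of the library labelled Bap1ΔMPC, a log2 difference of -3.41 (-4.45 to -2.52), and 1.66-fold lower in its other cells, a log2 difference of -0.73 (-1.15 to -0.33). *Sema3a* had 38 and 1 UMIs in other cells with a rule score of 10 to 20, in the libraries labelled Bap1WT and Bap1ΔMPC respectively. With a limit of 10 per 10000, its log2 difference in other cells was -0.23. Its level in Dpp4-type over other cells was 1.31 (0.95 to 1.67) on the log2 scale in the library labelled Bap1WT and -1.36 (-2.42 to -0.45) in the library labelled Bap1ΔMPC, so the class with the higher level was not the same in the 2 libraries. The share of Dpp4-type cells with a *Sema3a* UMI was 9.76% (8.03 to 11.7) and 1.02% (0.511 to 1.82), and 4.25% and 0.289% after thinning. In other cells the shares were 3.56% and 1.27%, and 1.35% and 0.703% after thinning. Where *Sema3a* was found in other cells of the library labelled Bap1ΔMPC, the positive cells averaged 1.95 UMIs and held up to 10, against 1.26 UMIs and up to 4 in the library labelled Bap1WT.

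**Figure D1:**
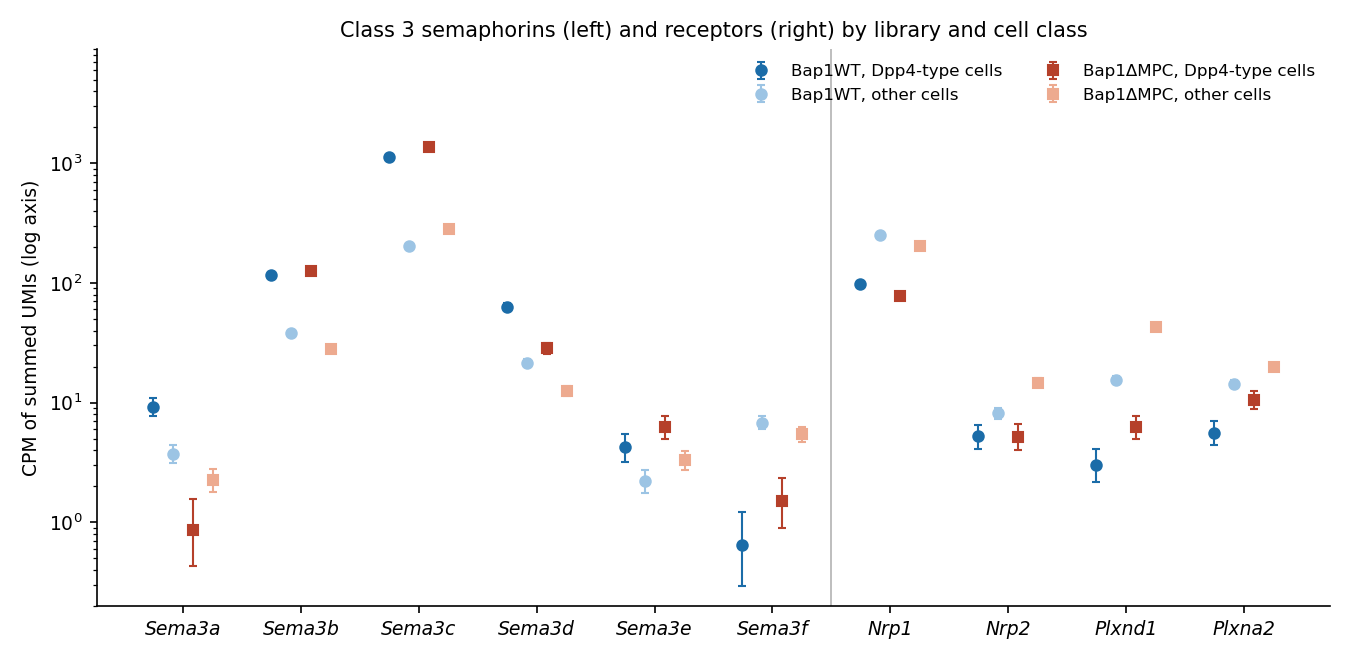
CPM of summed UMIs (log axis) of each member in Dpp4-type and other cells of each library, with exact Poisson 95% intervals of the counting error. *Sema3c* stands highest of the ligands at 1138 and 1366 CPM in Dpp4-type cells, *Nrp1* is the highest receptor in every combination, and *Sema3a* in Dpp4-type cells is at 9.2 CPM in the library labelled Bap1WT and 0.866 CPM in the library labelled Bap1ΔMPC.

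The 250 bases before the RefSeq start of 8 of the 10 genes were read from a table of the GRCm38.p6 build, in which *Sema3b* and *Sema3f* were not matched. The 3 shown belong to the members with the largest differences between the libraries over all cells, *Sema3a* and *Sema3d*, which were lower in the library labelled Bap1ΔMPC, and *Plxnd1*, which was higher there, at chr5:13396534-13396783 (plus strand), chr5:12382916-12383165 (plus strand) and chr6:115995006-115995255 (minus strand). They are written 5′ to 3′ on the gene's strand, and capitals mark each CG dinucleotide.
Sema3a: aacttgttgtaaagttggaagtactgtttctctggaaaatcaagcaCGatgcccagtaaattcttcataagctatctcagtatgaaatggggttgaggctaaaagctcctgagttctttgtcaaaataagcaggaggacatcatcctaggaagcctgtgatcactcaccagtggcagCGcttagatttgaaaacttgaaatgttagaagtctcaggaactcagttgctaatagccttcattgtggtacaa
Sema3d: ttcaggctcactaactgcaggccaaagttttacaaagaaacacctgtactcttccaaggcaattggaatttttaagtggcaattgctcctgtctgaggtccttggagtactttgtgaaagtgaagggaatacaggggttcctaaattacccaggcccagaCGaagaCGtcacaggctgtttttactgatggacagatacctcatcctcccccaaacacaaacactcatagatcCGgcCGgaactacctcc
Plxnd1: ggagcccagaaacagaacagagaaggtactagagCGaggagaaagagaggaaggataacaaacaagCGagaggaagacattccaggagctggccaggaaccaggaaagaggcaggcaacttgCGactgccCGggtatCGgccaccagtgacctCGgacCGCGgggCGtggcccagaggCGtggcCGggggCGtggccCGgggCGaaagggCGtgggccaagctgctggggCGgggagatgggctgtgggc
These upstream stretches held 2 CG in *Sema3a*, 4 in *Sema3d* and 16 in *Plxnd1*, and that of *Sema3c*, which overlaps the first exon of the annotation and is not shown, held 39, where the median over 32851 promoters of the same length was 6. A count as high as that of *Sema3c* was found in 1.56% of promoters, as high as that of *Plxnd1* in 25.4%, as high as that of *Sema3d* in 62.2% and as high as that of *Sema3a* in 81.2%. The GC box GGGCGG, searched on both strands and overlapping CG by its own letters, was found 3 times before *Sema3c*, 1 time before *Plxnd1* and not before *Sema3a* or *Sema3d*, and 32.7% of promoters held it. The RefSeq start of *Sema3a* used here lies inside the gene model of the annotation, which spans chr5:13125414-13602565, in an intron of a longer transcript. The stretches of *Nrp1* and *Plxna2* also lie inside the gene models of the annotation, and that of *Nrp2* overlaps the start of its gene model. The remaining matched genes held 7 CG (*Sema3e*), 11 (*Nrp1*), 18 (*Plxna2*) and 32 (*Nrp2*), with 2, 1, 2 and 5 GC boxes. These are descriptions of letters, and the counts carry no information on binding or on methylation.

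Of the receptors, *Nrp1* was the highest and was lower in Dpp4-type cells. *Nrp1*, the co-receptor shared by *Sema3a* and VEGF, was at 97.5 CPM in Dpp4-type and 254 CPM in other cells of the library labelled Bap1WT, and at 78.1 and 204 CPM in the library labelled Bap1ΔMPC. Its class difference was nearly equal in the libraries, at -1.38 (-1.46 to -1.30) and -1.39 (-1.49 to -1.29) on the log2 scale. *Nrp2*, the preferred co-receptor of *Sema3f*, was at 5.2 CPM (4.08 to 6.54) in Dpp4-type and 8.11 CPM (7.22 to 9.08) in other cells of the library labelled Bap1WT. In the library labelled Bap1ΔMPC it was at 5.19 CPM (4.02 to 6.61) and 14.6 CPM (13.4 to 15.9). The log2 difference of *Nrp2* between the libraries was 0.85 (0.64 to 1.05) in other cells, and in Dpp4-type cells its interval was -0.51 to 0.50. The latter depended on the rule, at 1.22 with *Anxa3* and *Efemp1* alone and -0.54 with a limit of 40 per 10000.

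*Plxnd1*, the plexin of endothelial guidance and the direct receptor of *Sema3e*, was at 2.99 CPM (2.16 to 4.05) in Dpp4-type and 15.4 CPM (14.2 to 16.7) in other cells of the library labelled Bap1WT. It was at 6.22 CPM (4.92 to 7.75) and 42.7 CPM (40.6 to 44.9) in the library labelled Bap1ΔMPC. *Plxnd1* was 5.15-fold and 6.87-fold lower in Dpp4-type than in other cells, with log2 differences that ranged from -5.07 to -2.01 and from -3.14 to -2.29 over other rules and scalings. *Plxna2*, a signalling plexin for several class 3 ligands, was at 5.56 and 14.3 CPM in the library labelled Bap1WT and at 10.5 and 20.0 CPM in the library labelled Bap1ΔMPC. Both plexins were higher in the library labelled Bap1ΔMPC in each class, *Plxnd1* by 1.05 (0.50 to 1.63) and 1.47 (1.33 to 1.61) and *Plxna2* by 0.91 (0.50 to 1.34) and 0.49 (0.32 to 0.65) on the log2 scale in Dpp4-type and other cells. At 5000 UMIs per cell, a neuropilin and a plexin of this set were found together in 1.98% and 2.31% of Dpp4-type cells and in 7.98% and 14.9% of other cells, in the libraries labelled Bap1WT and Bap1ΔMPC respectively. Only *Plxnd1* and *Plxna2* were counted as plexins here. *Plxna1*, at 86.0 and 96.7 CPM in Dpp4-type cells, was left out, so these shares do not cover all neuropilin and plexin pairs.

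Between Dpp4-type and other cells, 4 of the 10 members were over 3-fold apart in each library, *Sema3b* and *Sema3c* higher and *Sema3f* and *Plxnd1* lower. Among all 13582 genes with at least 20 UMIs in the library labelled Bap1WT, 2.99% were over 3-fold higher in Dpp4-type cells and 6.97% over 3-fold lower. Among 13680 genes in the library labelled Bap1ΔMPC, the shares were 1.9% and 6.63%. The median size of the log2 difference was 1.47 and 1.44 over the members and 0.25 and 0.26 over all genes. Members were named with earlier results of these data known, so these counts are descriptions.

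**Figure D2:**
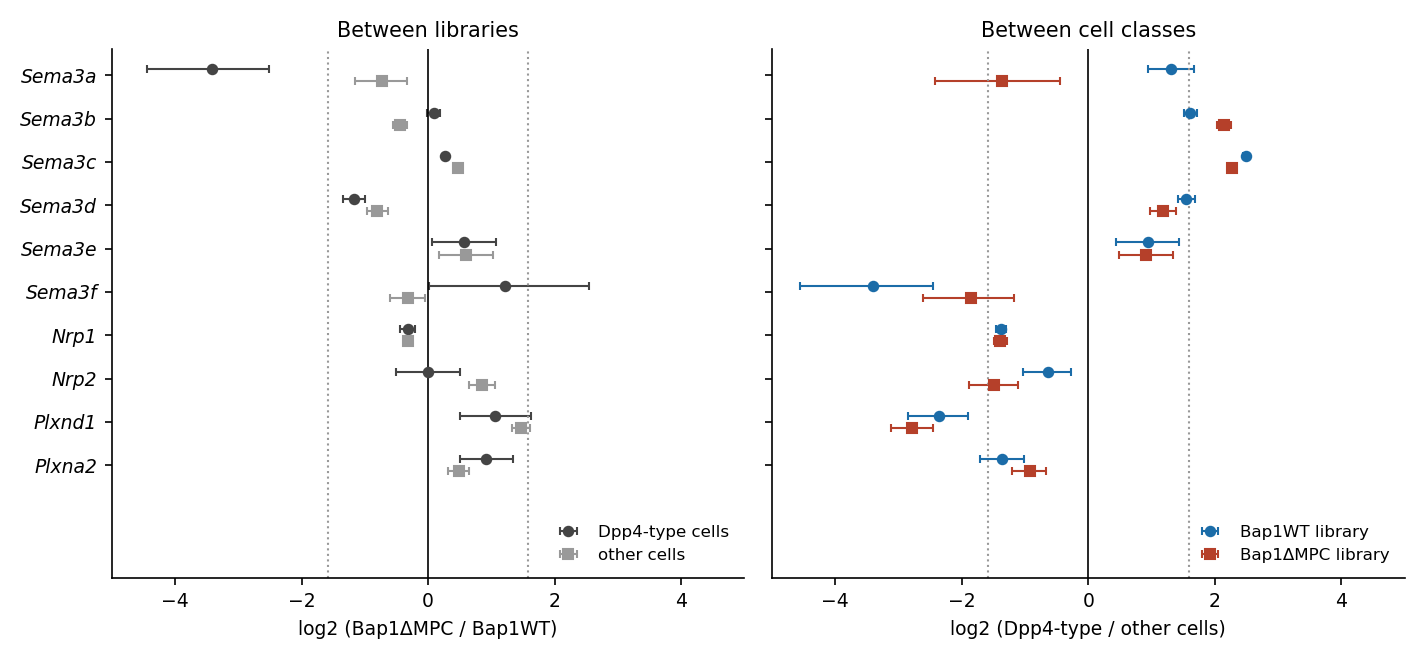
Log2 ratios of CPM for the 10 members, between libraries in each class (left) and between classes in each library (right), with exact 95% intervals of the counting error and dotted lines at 3-fold. *Sema3a* in Dpp4-type cells is the only between-library point past 3-fold, at -3.41, and on the right it is the only member with points on both sides of 0, at 1.31 and -1.36.

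Between the libraries, no member was over 3-fold apart when all cells were summed, where 3.15% of 14729 genes were over 3-fold higher in the library labelled Bap1ΔMPC and 2.12% over 3-fold lower. In Dpp4-type cells, 1 member was over 3-fold lower (*Sema3a*) and none higher, where 1.38% of 12413 genes were over 3-fold lower and 1.89% higher. In other cells no member passed 3-fold, where 3.72% of 14317 genes were higher and 2.14% lower. The median log2 difference of all genes was 0.10, 0.07 and 0.11 in these comparisons, and of the members 0.05, 0.18 and 0.09. The *Sema3a* value in Dpp4-type cells lay at percentile 0.0967 of the 12413 genes, counted from the lowest.

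Differences of the other members between the libraries were under 3-fold in each class. *Sema3d* was lower in the library labelled Bap1ΔMPC by a log2 difference of -1.17 (-1.35 to -0.99) in Dpp4-type and -0.80 (-0.96 to -0.63) in other cells. *Nrp1* was lower by a log2 difference of -0.32 (-0.44 to -0.20) and -0.31 (-0.36 to -0.27). *Sema3c* was higher by 0.26 (0.23 to 0.29) and 0.48 (0.44 to 0.53), *Sema3e* by 0.56 (0.06 to 1.08) and 0.60 (0.18 to 1.02), and *Plxnd1* and *Plxna2* as given above. The *Sema3c* value in other cells depended on the rule, at 0.10 with a limit of 10 per 10000. It ranged from 0.10 to 0.80 over all settings. In cells with a rule score of 0, *Sema3c* was at 119 CPM in the library labelled Bap1WT and 87.9 CPM in the library labelled Bap1ΔMPC. Between 0 and 5 it was at 157 and 176 CPM. *Sema3b* differed by 0.09 (-0.01 to 0.19) in Dpp4-type and -0.45 (-0.56 to -0.33) in other cells. *Sema3f* differed by 1.22 (0.01 to 2.55) in Dpp4-type cells, on 9 and 19 UMIs, and by -0.32 (-0.60 to -0.05) in other cells. Setting the library labelled Bap1ΔMPC to the share of UMIs from Dpp4-type cells of the other library (27.5% in place of 25.6%) left *Sema3a* at -1.49 and *Plxnd1* at 1.45 over all cells, against -1.47 and 1.47 without that change.

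The members were also followed across the rule score, from cells with none of the 3 rule genes to cells with 80 or more per 10000, since the classes were cut from a continuous score. *Sema3c* climbed from 119 to 1614 CPM in the library labelled Bap1WT and from 87.9 to 1756 CPM in the library labelled Bap1ΔMPC. Between 10 and 20 it was already at 814 CPM in the library labelled Bap1ΔMPC, against 435 CPM in the library labelled Bap1WT, which reached 778 CPM between 20 and 40. Of the 3 genes of the score, *Pi16* (2882 against 3780 CPM) and *Anxa3* (729 against 1066 CPM) were themselves lower in Dpp4-type cells of the library labelled Bap1ΔMPC and *Efemp1* was higher (849 against 634 CPM), so equal scores do not mark equal states in the 2 libraries. The part of these genes in the class differences was not tested.

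*Sema3b* climbed along the score from 37.0 to 139 CPM in the library labelled Bap1WT and from 14.4 to 162 CPM in the library labelled Bap1ΔMPC. *Sema3d* climbed from 18.7 to 107 CPM and, with a dip to 11.5 CPM between 10 and 20, from 6.94 to 43.0 CPM. The libraries parted for *Sema3a* at scores of 10 or more. In all 4 bins there it stood between 7.58 and 10.2 CPM in the library labelled Bap1WT and between 0 and 1.03 CPM in the other library. At a score of 0 *Sema3a* was at 2.9 and 1.93 CPM, between 0 and 5 at 2.98 and 3.19 CPM, and between 5 and 10 at 3.48 and 2.19 CPM. *Nrp1* declined from 325 to 83.2 CPM in the library labelled Bap1WT and from 278 CPM to between 69.8 and 96.3 CPM at scores of 10 or more in the library labelled Bap1ΔMPC, and *Plxnd1* from 19.6 to 0 CPM and from 53.2 to 2 CPM.

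**Figure D3:**
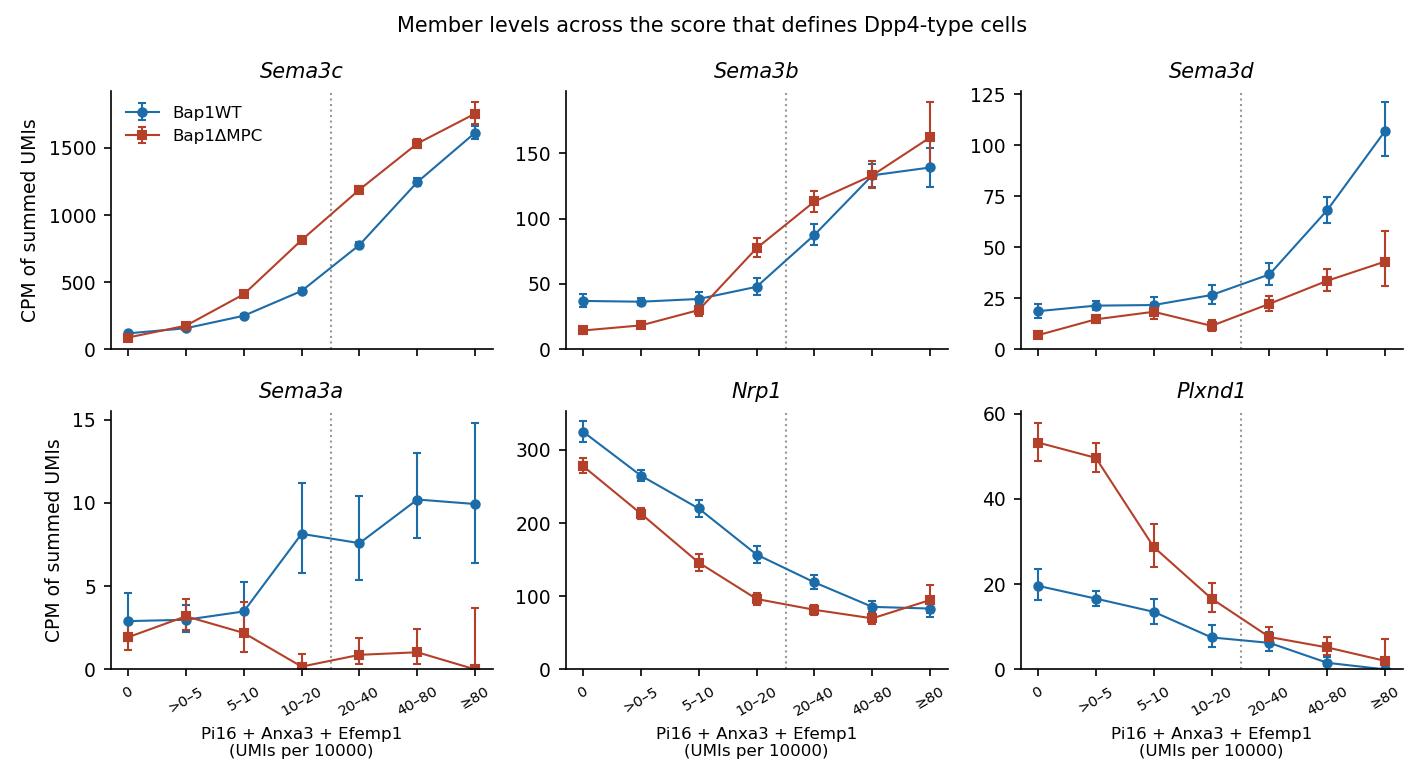
CPM of summed UMIs of 6 members in cells binned by the UMIs of *Pi16*, *Anxa3* and *Efemp1* per 10000, with exact Poisson 95% intervals of the counting error and a dotted line at the limit of 20. *Sema3c* climbs to 1614 and 1756 CPM, *Nrp1* and *Plxnd1* decline, and *Sema3a* in the library labelled Bap1ΔMPC stays at or below 1.03 CPM from a score of 10 on.

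Within the cells outside the Dpp4-type class, *Plxnd1* was compared with and without cells with transcripts of *Spon1*, *Cldn2*, *Hsd11b2* or *Angpt4* (at least 3 UMIs per 10000 together). These numbered 134 of the other cells in the library labelled Bap1WT and 940 in the library labelled Bap1ΔMPC, and held 8.01% and 50.1% of all *Plxnd1* UMIs. *Plxnd1* was at 32.2 CPM and 78.4 CPM within these cells, a log2 difference of 1.29 (0.87 to 1.73), and at 14.7 and 28.4 CPM in the other cells without them, a log2 difference of 0.95 (0.79 to 1.11). *Plxnd1* was thus higher in the library labelled Bap1ΔMPC in both subsets, by less in each than over the whole class. *Plxnd1* was at its highest level, 144 CPM, in 43 cells with *Adipoq*, *Plin1*, *Cidec* or *Car3* in the library labelled Bap1ΔMPC, which held 69 of its UMIs.

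The *Sema3a* UMIs left in the library labelled Bap1ΔMPC lay partly in cells with the tendon genes *Chad* and *Tnmd* or with *Cilp2*. Among its other cells, 250 such cells held 33 of the 93 *Sema3a* UMIs of the library, or 35.5%, at 11.2 CPM. In the library labelled Bap1WT, 108 such cells held 25 of 266 *Sema3a* UMIs, or 9.4%, at 17.4 CPM. Without these cells, *Sema3a* in other cells was at 3.15 and 1.45 CPM, a log2 difference of -1.12 (-1.64 to -0.63). The same cells held 2 and 38 UMIs of *Sema3e* (1.39 and 12.9 CPM), and without them the *Sema3e* difference in other cells was 0.16 (-0.30 to 0.62), where it was 0.60 with them.

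Further groups were marked by the genes named. *Nrp1* was highest in cells with *Fmo2*, *Angpt2* or *Stc1* (389 and 297 CPM, 465 and 63 cells) and with *Hmcn1*, *Meox1* or *Etv4* (376 and 288 CPM, 577 and 199 cells), and the latter also had the most *Nrp2* in the library labelled Bap1ΔMPC, at 35.1 CPM. *Sema3b* was low in cells with *Hmcn1*, *Meox1* or *Etv4*, at 6.39 and 9.36 CPM. Dpp4-type cells with *Krt7* or *Plet1*, of which there were 150 in the library labelled Bap1ΔMPC and 3 in the library labelled Bap1WT, had *Sema3c* at 1694 CPM and *Sema3d* at 6.9 CPM, against 1314 and 31.6 CPM in the 927 Dpp4-type cells without them. *Sema3a* was low in both, at 0.575 and 0.912 CPM. In 178 cells with *Wnt4*, *Pcsk2* or *Rtl4* of the library labelled Bap1ΔMPC, *Plxna2* was at 46.5 CPM, its highest level in any group of at least 20 cells. These groups overlap and come from 1 library per genotype, so a group found mostly in 1 library may be that library and not a cell type.

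**Figure D4:**
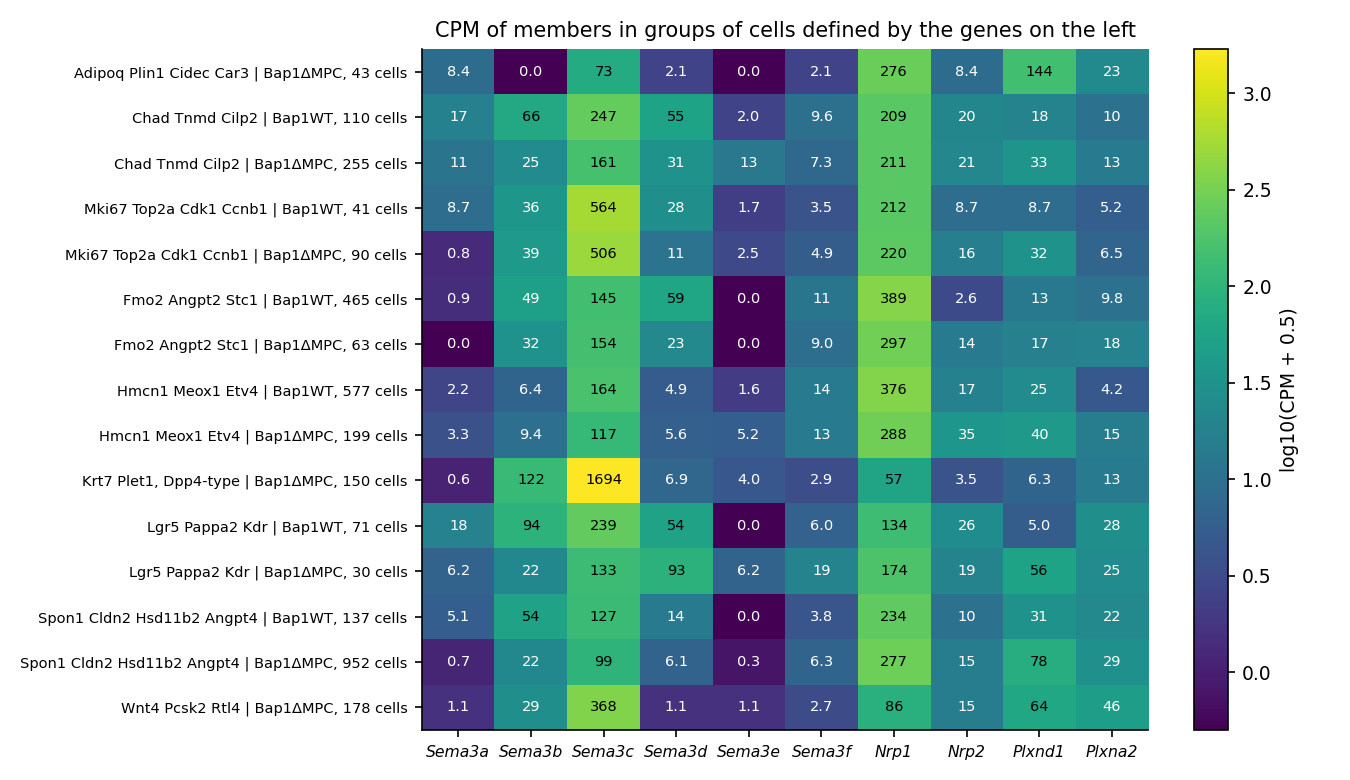
CPM of the 10 members (columns) in groups of at least 20 cells (rows, with library and number of cells) that held at least 3 UMIs per 10000 of the genes written at the left, with color on a scale of log10(CPM + 0.5). *Sema3c* reaches 1694 CPM in Dpp4-type cells with *Krt7* or *Plet1* of the library labelled Bap1ΔMPC. In the same library *Plxnd1* is at 77.9 CPM in the 952 cells with *Spon1*, *Cldn2*, *Hsd11b2* or *Angpt4*. *Plxnd1* is highest, at 144 CPM, in the 43 cells with *Adipoq*, *Plin1*, *Cidec* or *Car3* of that library.

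Among 5817 genes of at least 20 CPM, those most like *Sema3c* across the 4103 cells of the library labelled Bap1WT were *Efhd1* (Pearson r 0.69 of log-scaled UMIs per 10000), *Fbn1* (0.67), *Fstl1* (0.64), *Cd55* (0.64) and *Emilin2* (0.63). In the library labelled Bap1ΔMPC their r was 0.69, 0.65, 0.60, 0.71 and 0.64. *Nrp1* was most like *Cst3* and *Mgp*, each with an r of 0.48 in the library labelled Bap1WT but of 0.29 and 0.26 in the library labelled Bap1ΔMPC. *Gdf10* (0.47 and 0.26), *Cygb* (0.43 and 0.39) and *Igfbp7* (0.43 and 0.41) came next. For *Sema3b* the first gene was *Sfrp2* (0.38 and 0.26), followed by *Fn1* (0.38 and 0.39) and *Pcolce2* (0.37 and 0.43). After these stood *Cpz* (0.37 and 0.19) and *Dpp4* (0.37 and 0.39). For *Sema3d* the first gene was *Timp2* (0.34 and 0.15), followed by *Sfrp2* (0.33 and 0.11) and *Bmp3* (0.31 and 0.14). After these stood *Wnt2* (0.30 and 0.44) and *Sparc* (0.30 and 0.14). For the 6 remaining members no gene reached 0.3. Between members, *Sema3b* and *Sema3c* had an r of 0.34 and 0.46 in the 2 libraries, and *Sema3c* and *Nrp1* had an r of -0.33 and -0.38. Cells of 1 library share their preparation and differ in depth, and the values are descriptions with no test.

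The wider pathway was taken as a list of 59 other semaphorins, plexins, co-receptors, VEGF ligands and receptors, and effectors. *Sema3g*, the remaining class 3 ligand, had 2 and 14 UMIs, all outside the Dpp4-type class. Between Dpp4-type and other cells, 3 of the 53 measured genes were over 3-fold higher and 8 over 3-fold lower in the library labelled Bap1WT, and 1 and 6 of 54 in the library labelled Bap1ΔMPC, where the shares over all genes were 2.99% and 6.97% and then 1.9% and 6.63%. *Plxna1*, a class A plexin that signals for *Sema3a* with *Nrp1*, was higher in Dpp4-type cells of both libraries, at 86.0 against 26.7 CPM and at 96.7 against 30.8 CPM. It thus went against *Plxna2* and *Plxnd1*. *Sema4d* was also higher in the library labelled Bap1WT (3.28 against 0.487 CPM). *Plxnc1*, the receptor of *Sema7a*, *Sema5b* and the VEGF receptor *Flt1* were over 3-fold lower in Dpp4-type cells of both libraries, *Plxnc1* at 0.499 against 6.76 CPM and at 0.708 against 6.19 CPM. These rest on few UMIs in Dpp4-type cells, 7 and 9 of *Plxnc1*, 8 and 5 of *Flt1* and only 1 of *Sema5b* in each library. *Sema5a*, *Sema7a*, *Mical2* and *Pak1* passed 3-fold lower in the library labelled Bap1WT alone. *L1cam* was there at 0 against 31 UMIs, 3.92-fold lower with the 0 set to a floor of 3 counts, and its log2 interval reached up to -1.59. *Sema4a*, *Plxna4* and *Dpysl4* passed in the library labelled Bap1ΔMPC alone. The difference between libraries was not tested for any of these genes.

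*Chl1*, an adhesion protein of the L1 family that acts with *Nrp1* in the response to *Sema3a*, was also lower in Dpp4-type cells of the library labelled Bap1ΔMPC. It was at 15.6 CPM in Dpp4-type and 1.92 CPM in other cells of the library labelled Bap1WT, and at 1.1 and 2.9 CPM in the library labelled Bap1ΔMPC. Its between-library log2 difference in Dpp4-type cells was -3.82 (-4.72 to -3.05), on 219 and 14 UMIs. In other cells *Chl1* was higher in the library labelled Bap1ΔMPC by 0.60 (0.15 to 1.05), where *Sema3a* was lower. Over the pathway list, the genes over 3-fold apart between the libraries in all cells were *Sema6a* (15.9 and 5.11 CPM) and *Pak1* (4.14 and 1.07 CPM), both lower in the library labelled Bap1ΔMPC, and *Sdc3*, a cell-surface heparan sulfate proteoglycan, which was higher there (4.19 and 15.8 CPM). In Dpp4-type cells, *Chl1* was lower and *Sdc3* higher, 2 of 47 measured genes, where 1.38% of all genes were lower and 1.89% higher. In other cells, *Sema6a* and *Pak1* were lower and *Sdc3* and *Rnd1*, a small GTPase that binds plexins, were higher, 4 of 54, where 2.14% of all genes were lower and 3.72% higher. The median log2 difference of the list was 0.19, 0.19 and 0.23 in all, Dpp4-type and other cells, beside 0.10, 0.07 and 0.11 over all genes.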

How the data were processed

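Single FAPs of 1 library per genotype were measured with a 10x Genomics 3′ kit. Per the labels, the authors used Cell Ranger 3.1.0 on mm10 and Seurat 3.2.1 in R 3.6.1, and the authors deposited unnormalized UMI counts for each gene and cell after filtering for quality, doublets and non-FAPs; the filter thresholds are not given in the sources used here. The labels and the methods differ on the sequencer.

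All deposited cells were kept. The UMIs of all cells of a class were added up in each library (51015705 and 49540066 UMIs in all) and scaled to CPM. Genes entered a comparison with at least 20 UMIs over both sums, a sum of 0 was set to a floor of 3 counts, and genes were named past 3-fold, with no test, because each genotype is 1 library. Ratios have exact intervals from a binomial split, levels exact Poisson and shares exact Clopper-Pearson intervals. Shares of cells were also computed after thinning to 5000 UMIs, which left out 120 and 210 shallower cells. Likeness used Pearson r of log(1 + UMIs per 10000), leaving out the members and the rule genes, and genes were named where the first r was at least 0.3. Of the pathway list, genes past 3-fold in any comparison were named. The members, lists and rules were chosen with earlier results of these data known. Scrublet in scanpy 1.11.5 called 2 and 1 doublets in cells that, per the methods, had already been gated for doublets, so the remaining doublets are not known. Positions came from GENCODE annotation of GRCm38 and promoters from RefSeq. The ratios were tested on simulated data. Python 3.11.15, scipy 1.17.1, R 4.3.3 and edgeR 4.0.16 (TMM factors only, no test) were used. Bulk RNA-Seq, imaging and behavior were not analysed here.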

Additional observations from a re-analysis of the deposited data

Results flagged for a closer look

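*Sema3a* is listed because its level in Dpp4-type over other cells had opposite signs in the 2 libraries, each beyond its counting interval, with log2 values of 1.31 in the library labelled Bap1WT and -1.36 in the library labelled Bap1ΔMPC. The second value rests on 11 UMIs in Dpp4-type cells. *Sema3f* is listed because the difference between libraries had opposite signs in the 2 classes, with log2 values of 1.22 in Dpp4-type cells, on 9 and 19 UMIs, and -0.32 in other cells. With 1 library per genotype, neither difference was tested.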

How the results depend on the processing

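No paired analysis was possible because there is a single library for each genotype. The number of members past 3-fold between libraries in Dpp4-type cells was 2 in place of 1 with a limit of 40 per 10000 (*Plxnd1* then at 2.03) and with *Anxa3* and *Efemp1* alone (*Plxna2* then at 1.88). With a fold of 2, the numbers were 3 in all cells, 4 in Dpp4-type cells and 1 in other cells between libraries, and 8 in each library between classes. The share of all genes past a fold of 2 was not computed, so these numbers stand without a reference. All 72 further counts, of 79, stayed within 1.5 times the reported count, and between classes they ranged from 4 to 6 in each library. Of 636 recomputed log2 differences of members, 614 lay within 0.5 of the reported value. Of the same 636, 108 lay outside the counting interval of the reported value, not counting the reversal given next. The only reversal beyond the counting interval was *Sema3b* over all cells, at 0.03 without cells holding *Spon1*, *Cldn2*, *Hsd11b2* or *Angpt4* in place of -0.18; the cause was not tested. That setting, the highest 25% of cells by score and the matched share of Dpp4-type UMIs were chosen after the data were seen. *Sema3a* between libraries ranged from -3.98 to -3.18 in Dpp4-type and from -1.16 to -0.23 in other cells, and *Sema3f* in Dpp4-type cells from 0.01 to 1.43. The share of Dpp4-type cells ranged from 8.87 to 34.3% and from 7.08 to 36.3% with the limit and the rule genes. TMM factors moved every between-library value by -0.11 to -0.07. Depth limits *Sema3f* and *Sema3a* most, with 9 to 19 UMIs in 3 of their Dpp4-type sums.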
